A study of Mus musculus with 4 samples.

Results

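The genes described here are the 4 ligands and 5 receptors of the vascular endothelial growth factor (VEGF) family that were read across cell classes of the mouse digit: the ligands Vegfa, Vegfb, Vegfc and Vegfd, the tyrosine kinase receptors Flt1 (VEGFR1), Kdr (VEGFR2) and Flt4 (VEGFR3), and the neuropilin coreceptors Nrp1 and Nrp2. They were chosen by symbol, each symbol matched 1 feature, and all 9 of the 33696 features were detected in each of the 4 libraries. The study dissociated P3 digits (hindlimb digits 2 to 4) of female C57BL/6 mice aged 6 to 8 weeks and sequenced 3' single-cell libraries, each from the pooled digits of 10 mice. In 1 pair, mice received chow with SAR131675, a VEGFR3 kinase inhibitor, mixed in at 30 mg per kg, or a matched diet without it (control diet). In the other pair, the inguinal and popliteal lymph nodes of 1 extremity were removed (LNR) or the digits came from sham controls, which the sample labels list as untreated and the study's text as the contralateral side (sham). The injury was amputation of the distal tip of P3, the terminal phalanx. The study's methods give it for digits 2 and 4 of each hindlimb. For harvest, digits 2 to 4 were cut off at the proximal end of the second phalanx, so tissue proximal to P3 entered the suspension. The study's text places the diet libraries at 8 days after amputation, a legend of it names 5 days, and the sample labels give no day. For the LNR pair, a supplementary legend of the study names 8 days. The series' design gives 8 days of SAR131675, whereas the study's methods start the chow 5 days before amputation.

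VEGF-A binds FLT1 and KDR, and KDR carries most of its mitogenic signal in blood endothelium, whereas FLT1 binds VEGF-A tightly, signals weakly and is also made as a soluble decoy. VEGF-B binds FLT1. VEGF-C, once cleaved, binds FLT4 and also KDR, VEGF-D of the mouse binds FLT4, and FLT4 on lymphatic endothelium is the receptor through which VEGF-C drives the growth of lymphatic vessels. NRP1 and NRP2 bind both VEGFs and class 3 semaphorins, NRP1 mainly beside KDR on blood vessels and NRP2 mainly beside FLT4 on veins and lymphatics. SAR131675 blocks the kinase activity of FLT4.

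The 250 bases before the start sites of the 3 tyrosine kinase receptor genes are shown first, because most UMIs of each of these genes lay in LEC-like or BEC-like cells. The sequences are those of RefSeq on GRCm38.p6, printed 5′ to 3′ in the sense of the gene, and all 9 genes had a window in the table. Capitals mark the GC box GGGCGG and the TATA box TATAAA on either strand. These 2 motifs cannot overlap each other.
Flt1 (chr5:147726012-147726261, minus strand): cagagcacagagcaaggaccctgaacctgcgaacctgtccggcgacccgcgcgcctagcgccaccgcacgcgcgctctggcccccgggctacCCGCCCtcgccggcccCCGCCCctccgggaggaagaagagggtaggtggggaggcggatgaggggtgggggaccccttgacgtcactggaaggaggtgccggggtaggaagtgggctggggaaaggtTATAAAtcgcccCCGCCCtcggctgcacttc
Kdr (chr5:75978456-75978705, minus strand): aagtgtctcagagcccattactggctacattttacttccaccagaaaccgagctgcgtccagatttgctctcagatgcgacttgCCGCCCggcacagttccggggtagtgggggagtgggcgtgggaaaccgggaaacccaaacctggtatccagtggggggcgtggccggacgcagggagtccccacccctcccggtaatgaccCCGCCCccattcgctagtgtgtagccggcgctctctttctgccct
Flt4 (chr11:49609429-49609678, plus strand): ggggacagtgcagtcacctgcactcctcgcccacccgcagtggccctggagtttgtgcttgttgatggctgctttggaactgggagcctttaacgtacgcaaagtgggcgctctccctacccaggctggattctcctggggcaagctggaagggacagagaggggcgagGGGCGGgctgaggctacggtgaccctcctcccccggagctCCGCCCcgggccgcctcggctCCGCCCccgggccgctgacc
GGGCGG occurred 3 times in the Flt1 window, 2 times in Kdr and 3 times in Flt4, and TATAAA occurred in Flt1, 31 bases before the start. Of the 9 genes, 8 had GGGCGG in a window and 2 (Vegfd and Flt1) had TATAAA, against 32.7% and 12.4% of all 32851 promoter windows of the same length. A match describes these letters and is no evidence of binding.

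The 4 libraries differed in depth, and each is its own batch. Deposited counts summed to 168507188 UMIs (LNR), 175998346 (sham), 448276501 (control diet) and 585284877 (SAR131675). Between 19827 and 29076 cells per library passed the filters, with a median of 5725 (LNR) to 11316 (SAR131675) UMIs per cell. The 2 libraries of the diet pair shared 348 cell barcodes and those of the LNR pair 130, whereas libraries of different pairs shared at most 3. With 1 library per condition, treatment and batch cannot be told apart and no test between conditions was possible. Intervals below are exact 95% intervals and cover counting error only.

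Cells were clustered in each pair without the 9 genes, and clusters were named from marker lists, which gave 25 cell classes with at least 30 cells in every library. LEC-like cells numbered 244 in SAR131675, 251 in control diet, 217 in LNR and 218 in sham. BEC-like cells numbered 786 in SAR131675, 650 in control diet, 730 in LNR and 771 in sham. The 6 LEC markers (Prox1, Lyve1, Ccl21a, Mmrn1, Pdpn and Reln) summed to 14821 to 20634 CPM in LEC-like and 21.6 to 77.0 CPM in BEC-like cells, where CPM is the UMIs of a gene per 1000000 UMIs of the class in that library. Both classes also held RNA of other cells. The 7 keratinocyte markers summed to 1912 to 4523 CPM in LEC-like and 1372 to 3231 CPM in BEC-like cells, and to 260.0 to 814 and 297 to 607 CPM once subclusters led by genes of another class were left out. Erythroid genes did not count when such subclusters were marked, so none was left out because of them. The 5 erythroid markers summed to 363 to 4562 and 78.8 to 1389 CPM before and to 85.5 to 6193 and 88.2 to 2414 CPM after. Since UMIs were counted at the 3' end and the genes differ in length and priming, levels were compared between classes and libraries but not between genes.

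**Figure D1:**
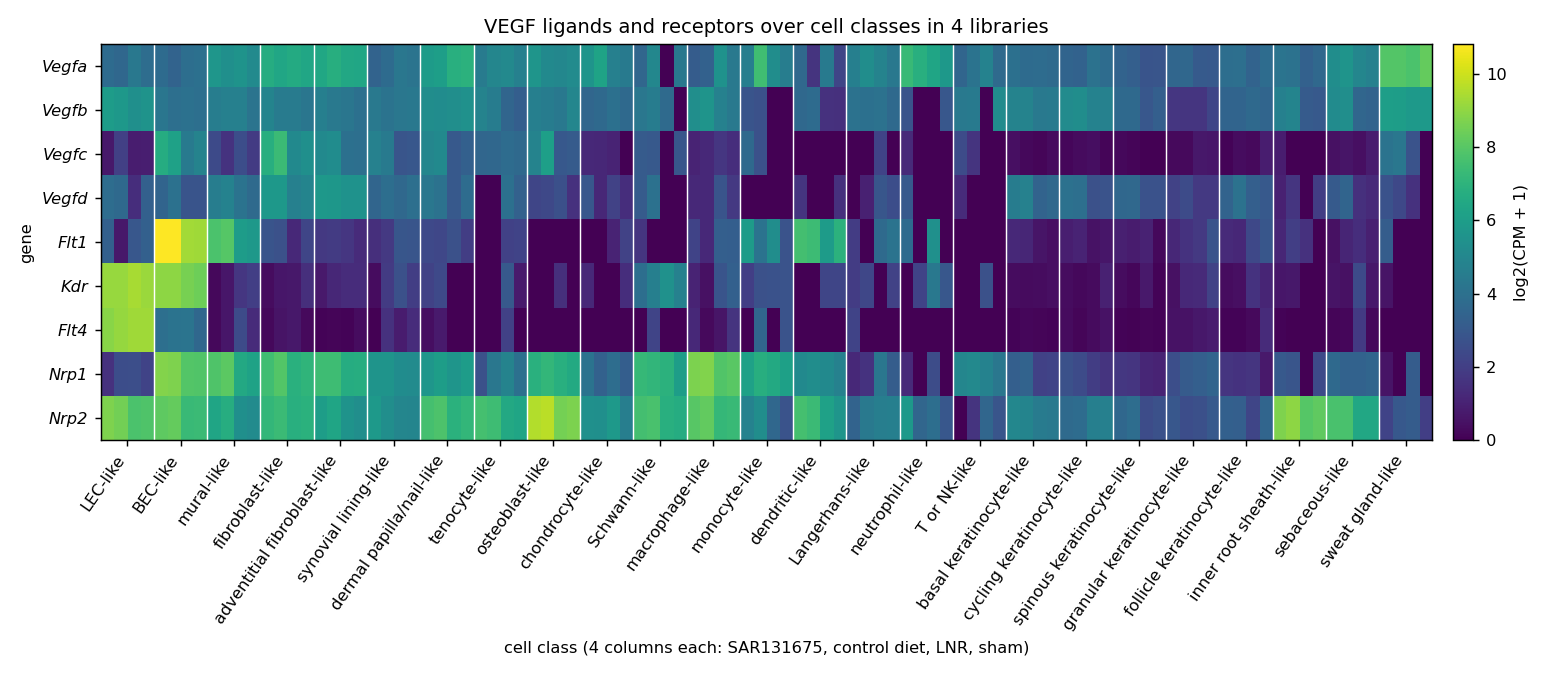
Level of each gene (rows) as log2(CPM + 1) in 25 cell classes, with 4 columns per class for the SAR131675, control diet, LNR and sham libraries in that order. Flt4 and Kdr are bright in the LEC-like columns, Flt1 in the BEC-like columns and Nrp2 in the osteoblast-like columns of all 4 libraries, whereas no ligand has its highest level in LEC-like or BEC-like cells.

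For 7 of the 9 genes the class with the highest level was the same in all 4 libraries: sweat gland or simple epithelium-like cells for Vegfa and Vegfb, fibroblast-like cells for Vegfc, BEC-like cells for Flt1, LEC-like cells for Kdr and Flt4, and osteoblast-like cells for Nrp2. For Vegfd it was the fibroblast-like class in the diet pair and the adventitial fibroblast-like class in the LNR pair, and for Nrp1 it was the BEC-like or the macrophage-like class. When each cell was given equal weight (the mean of per-cell CPM), the highest class was the same in all 4 libraries for 4 genes.

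Vegfa, the main angiogenic ligand and a target of the hypoxia response, was read in epithelial, stromal and myeloid cells. Sweat gland or simple epithelium-like cells (sweat gland-like cells), led by Krt8, Krt18 and the ion transport genes Atp1b1 and Fxyd2 and shallow at a median of 1485, 1803, 2283.5 and 1412 UMIs per cell in SAR131675, control diet, LNR and sham, had a level of 242 CPM (220.5 to 264) in SAR131675, 240.4 (216 to 267) in control diet, 212 (174 to 256) in LNR and 303 (246 to 368) in sham. This was the highest class in each library, although its interval of the difference to the next class (monocyte-like) included 0 in control diet. Adventitial fibroblast-like cells had 85.5 CPM in SAR131675, 110.2 in control diet, 89.4 in LNR and 84.3 in sham. Fibroblast-like cells had 102 CPM in SAR131675, 84.4 in control diet, 96.9 in LNR and 83.6 in sham, and these 2 classes did not differ beyond counting error in the LNR pair. Neutrophil-like cells had 155 CPM (108 UMIs) in SAR131675, 111 (31 UMIs) in control diet, 80.6 (17 UMIs) in LNR and 53.3 (8 UMIs) in sham. The fibroblast and skeletal classes, which held more cells, together carried 41.7% of all Vegfa UMIs in SAR131675, 48.1% in control diet, 49.2% in LNR and 44.9% in sham. The sweat gland-like class carried 5.74% of all Vegfa UMIs in SAR131675, 5.36% in control diet, 2.58% in LNR and 2.81% in sham. LEC-like cells, at 11.2 to 19.2 CPM, and BEC-like cells, at 9.85 to 15.1 CPM, were at the low end, near basal keratinocyte-like cells at 12.3 to 15.1 CPM.

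Vegfb, a ligand of FLT1 linked to fatty acid handling and cell survival, was spread over epithelial, endothelial and myeloid classes. Its level in sweat gland-like cells was 66.4 CPM (55.6 to 78.8) in SAR131675, 63.1 (51.0 to 77.4) in control diet, 56.4 (37.8 to 81.1) in LNR and 57.5 (34.6 to 89.9) in sham. LEC-like cells ranked second of the 25 classes in every library, with 61.4 CPM (49.7 to 74.9) in SAR131675, 52.8 (42.2 to 65.3) in control diet, 41.0 (30.3 to 54.2) in LNR and 46.5 (34.7 to 61.0) in sham, and did not differ from the sweat gland-like class beyond counting error in any library. BEC-like cells had 17.8 CPM in SAR131675, 14.5 in control diet, 15.2 in LNR and 14.4 in sham, below LEC-like cells in all 4 libraries with no overlap of the intervals. Keratinocyte and appendage classes carried 71.5% of all Vegfb UMIs in SAR131675, 72.1% in control diet, 51.3% in LNR and 57.5% in sham. Such shares also depend on how many UMIs of all genes a class held. Of 339642813 UMIs in SAR131675, basal and spinous keratinocyte-like cells alone held 91626822 and 78322682. Of 142866794 in LNR, they held 28717550 and 19819303.

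Vegfc, the main lymphangiogenic ligand, was read in fibroblasts and in the wall of blood vessels rather than in the epidermis. In fibroblast-like cells it reached 109 CPM (103 to 115) in SAR131675, 167 (158 to 176) in control diet, 34.3 (29.9 to 39.1) in LNR and 40.9 (35.5 to 46.9) in sham. BEC-like cells followed, with 104 CPM (97.0 to 112) in SAR131675, 71.0 (64.1 to 78.5) in control diet, 20.6 (16.3 to 25.6) in LNR and 27.2 (22.3 to 32.8) in sham, and the 2 classes differed beyond counting error in every library except SAR131675. Within BEC-like cells, Vegfc was concentrated in the arterial subclass, which had 613 CPM in SAR131675, 443 in control diet, 188 in LNR and 228 in sham, against 16.0 to 69.95 CPM in the venous and 2.11 to 39.7 CPM in the capillary subclass. LEC-like cells held 1, 5, 1 and 1 Vegfc UMIs in the same library order, and basal keratinocyte-like cells stood at 0.104 to 0.360 CPM. Fibroblast and skeletal classes carried 68.2% of all Vegfc UMIs in SAR131675, 79.0% in control diet, 67.3% in LNR and 63.7% in sham.

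Vegfd, the second FLT4 ligand, shared the stromal source but was also read in keratinocytes. Adventitial fibroblast-like cells, the class named from Pi16 and Dpp4, found around vessels and in fascia, had 53.6 CPM (50.6 to 56.8) in SAR131675, 51.4 (48.2 to 54.7) in control diet, 44.7 (41.0 to 48.6) in LNR and 44.8 (40.9 to 49.0) in sham. Fibroblast-like cells had 53.7 CPM in SAR131675, 52.9 in control diet, 24.8 in LNR and 28.7 in sham and equalled the adventitial class within counting error in the diet pair only. Basal keratinocyte-like cells, in which Vegfc was near 0, had 22.1 CPM (2029 UMIs) in SAR131675, 26.4 (1709 UMIs) in control diet, 9.85 (283 UMIs) in LNR and 11.6 (353 UMIs) in sham. Keratinocyte and appendage classes carried 60.8% of all Vegfd UMIs in SAR131675, 61.9% in control diet, 32.0% in LNR and 37.9% in sham. As for Vegfb, these shares also depend on how many UMIs of all genes the classes held in each library. For Vegfc the same classes carried 3.10% of all Vegfc UMIs in SAR131675, 2.05% in control diet, 2.37% in LNR and 3.18% in sham.

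**Figure D2:**
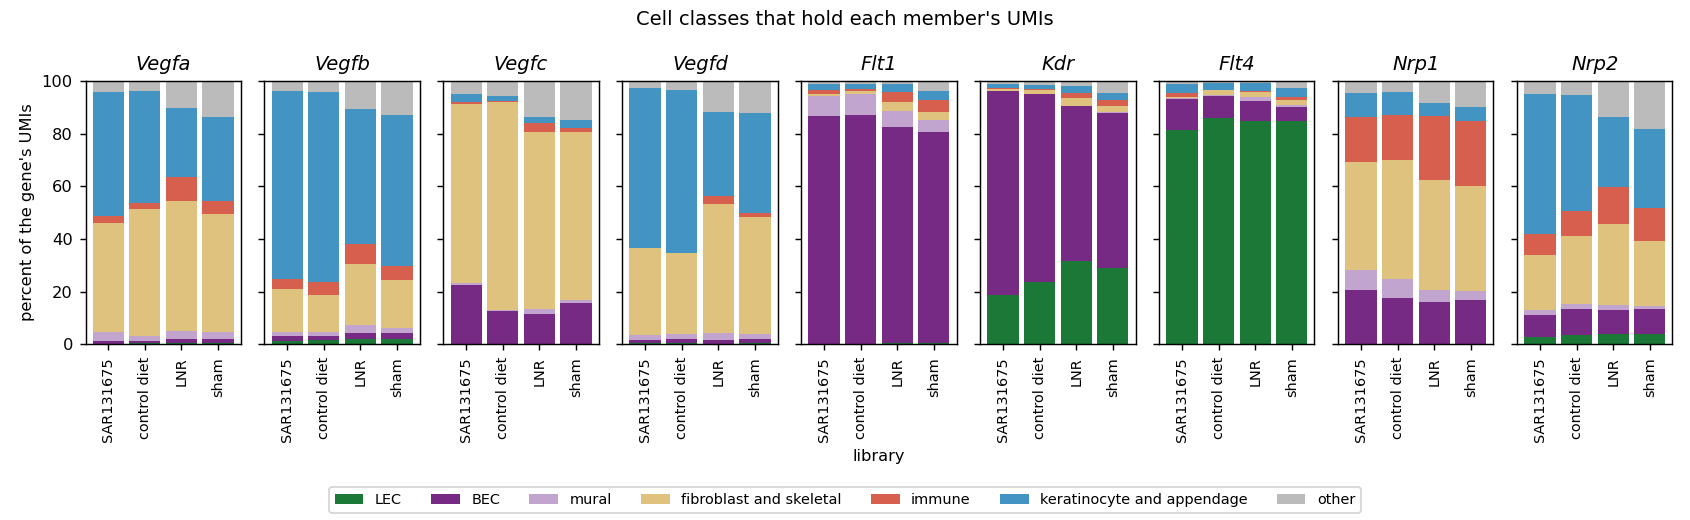
Percent of each gene's UMIs in kept cells that lay in LEC-like, BEC-like, mural-like, fibroblast and skeletal, immune, and keratinocyte and appendage classes, by library; other stands for unnamed clusters and classes with fewer cells. The bars of Flt1, Kdr and Flt4 are mostly endothelial (80.3% or more of Flt1 in BEC-like, 81.5% or more of Flt4 in LEC-like cells), whereas those of Vegfa, Vegfb, Vegfd and Nrp2 are mostly stromal and epithelial. Stromal and epithelial classes also held many of the UMIs of all genes, which these bars do not correct for.

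Flt1, whose UMIs may include those of the soluble form, set BEC-like apart from LEC-like cells, as did Nrp1 (below). BEC-like cells had 1802 CPM (1772 to 1833) in SAR131675, 1767 (1732 to 1803) in control diet, 639 (614 to 664) in LNR and 617 (593 to 642) in sham. LEC-like cells had 8.95 CPM (14 UMIs) in SAR131675, 0.621 (1 UMI) in control diet, 6.69 (8 UMIs) in LNR and 8.94 (10 UMIs) in sham. Outside the endothelium, mural-like cells, which wrap the vessels, had 216 CPM in SAR131675, 252 in control diet, 61.3 in LNR and 53.1 in sham. Dendritic-like cells had 189 CPM in SAR131675, 172 in control diet, 60.02 in LNR and 123 in sham. BEC-like cells carried 86.7% of all Flt1 UMIs in SAR131675, 86.9% in control diet, 82.3% in LNR and 80.3% in sham.

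Kdr was read in both kinds of endothelium. LEC-like cells had 565 CPM (528 to 604) in SAR131675, 560.1 (524 to 598) in control diet, 675 (629 to 723) in LNR and 589.9 (546 to 637) in sham. BEC-like cells had 501 CPM (485 to 518) in SAR131675, 503 (484 to 522) in control diet, 382 (363 to 402) in LNR and 341 (323 to 359) in sham, lower than LEC-like cells beyond counting error in each library. This order holds for the whole classes only. The capillary subclass of BEC-like cells, described below, had 1190.4 CPM in SAR131675, 1380.5 in control diet, 764 (688 to 847) in LNR and 712 in sham. These levels were above the whole LEC-like class in each library, with overlapping intervals in LNR. Against LEC-like subclusters not led by genes of other classes, the order held in the diet pair only. In the LNR pair, subclusters that kept the LEC markers had 747 CPM (661 to 840) in LNR and 711 (630 to 799) in sham. Unnamed LEC-like subclusters had 806 CPM (728 to 889) in LNR and 736 (651 to 829) in sham. No other class came near: Schwann-like cells, the next in every library, had 14.0 CPM (26 UMIs) in SAR131675, 24.4 (27 UMIs) in control diet, 43.3 (7 UMIs) in LNR and 25.6 (4 UMIs) in sham. BEC-like cells were the more numerous class and held 77.7% of all Kdr UMIs in SAR131675, 71.4% in control diet, 58.6% in LNR and 59.1% in sham.

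Flt4, the target of SAR131675, was the gene most restricted to lymphatic endothelium. LEC-like cells had 479 CPM (445 to 514) in SAR131675, 553 (517 to 590.2) in control diet, 610.3 (567 to 656) in LNR and 613 (568 to 661) in sham. BEC-like cells had 14.6 CPM (108 UMIs) in SAR131675, 16.4 (88 UMIs) in control diet, 16.7 (65 UMIs) in LNR and 11.3 (45 UMIs) in sham and ranked second in every library, although small classes with 0 to 2 Flt4 UMIs, such as the monocyte-like class, had upper limits that overlapped the BEC-like interval. Without subclusters led by other classes the BEC-like level was 16.5 CPM in SAR131675, 18.4 in control diet, 29.1 in LNR and 17.9 in sham. LEC-like cells held 81.5% of all Flt4 UMIs in SAR131675, 86.0% in control diet, 84.9% in LNR and 84.7% in sham, and T or NK-like cells held 0 UMIs in every library, which allows up to 5.53 to 22.6 CPM by the exact Poisson limit.

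Nrp1, but not Nrp2, separated the endothelial classes. In BEC-like cells Nrp1 was 444 CPM (429 to 459.9) in SAR131675, 426 (409 to 444) in control diet, 243 (228 to 259) in LNR and 232 (217 to 247) in sham. In LEC-like cells it was 1.92 CPM (3 UMIs) in SAR131675, 4.97 (8 UMIs) in control diet, 5.02 (6 UMIs) in LNR and 3.58 (4 UMIs) in sham, no higher than in basal keratinocyte-like cells beyond counting error in any library. Macrophage-like cells, with 415 CPM in SAR131675, 432 in control diet, 234 in LNR and 264 in sham, equalled the BEC-like class within counting error in control diet and LNR. Mural-like, fibroblast-like and adventitial fibroblast-like cells also carried it, at 73.2 to 275, 116 to 245 and 103 to 177 CPM. BEC-like cells held 20.6% of all Nrp1 UMIs in SAR131675, 17.4% in control diet, 16.0% in LNR and 16.7% in sham.

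Nrp2 was read in both endothelial classes. LEC-like cells had 422 CPM (390.3 to 455) in SAR131675, 367 (338 to 398) in control diet, 217 (191 to 245) in LNR and 226 (199 to 256) in sham. BEC-like cells had 278 CPM (266 to 291) in SAR131675, 302 (288 to 317) in control diet, 158 (146 to 171) in LNR and 164 (152 to 178) in sham, lower than LEC-like cells in all 4 libraries with no overlap of the intervals. The highest class was neither of these. Osteoblast-like cells, led by Bglap, Bglap2 and Ibsp, had 764 CPM (601 UMIs) in SAR131675, 832 (409 UMIs) in control diet, 379 (217 UMIs) in LNR and 412 (218 UMIs) in sham. Inner root sheath-like cells, a layer of the hair follicle led by Krt25, Krt71 and Tchh, had 421 CPM in SAR131675, 502 in control diet, 245 in LNR and 285 in sham. They held 27.4% of all Nrp2 UMIs in SAR131675, 14.8% in control diet, 1.96% in LNR and 2.88% in sham. Macrophage-like cells had 259 CPM in SAR131675, 300.0 in control diet, 147 in LNR and 158 in sham, within counting error of BEC-like cells in control diet, LNR and sham.

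**Figure D3:**
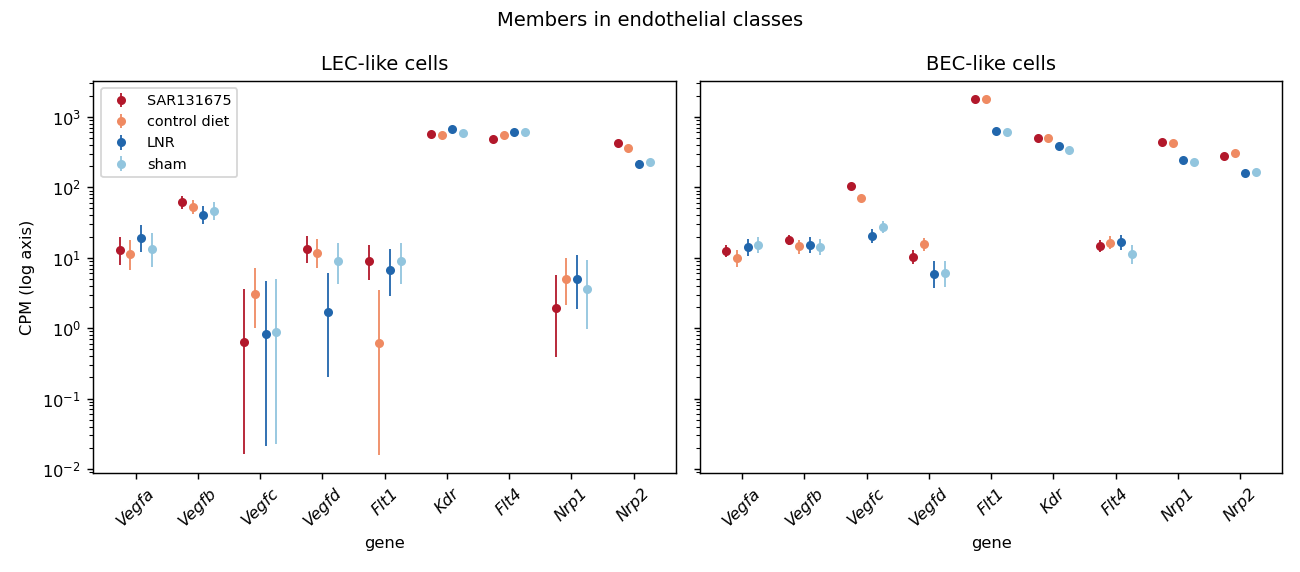
CPM of the 9 genes (log axis) in LEC-like cells (left) and BEC-like cells (right) of the 4 libraries, with exact 95% Poisson intervals; values of 0 are not drawn. Flt4 stands at 479 to 613 CPM in LEC-like and at 11.3 to 16.7 CPM in BEC-like cells, Flt1 and Nrp1 show the opposite order, and Kdr and Nrp2 are high in both.

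Shares of cells with a UMI gave the same picture and depended on depth. Flt4 was detected in 79.9% of LEC-like cells in SAR131675, 81.3% in control diet, 73.3% in LNR and 73.9% in sham. With each cell thinned to 2000 UMIs and shallower cells left out (214, 212, 149 and 147 LEC-like cells stayed), the shares were 57.9% in SAR131675, 61.8% in control diet, 63.8% in LNR and 71.4% in sham. In basal keratinocyte-like cells, which should lack it, the unthinned share was 0.0425% to 0.135%. Median depths were 5094.5, 5184, 3054 and 3242.5 UMIs in LEC-like and 10570.5, 9952.5, 6402 and 5986 UMIs in basal keratinocyte-like cells, in the same library order. The order of the libraries in Flt4 detection changed with thinning, and no difference between libraries was read from it.

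Flt4 and Kdr were found together in 68.0% of LEC-like cells in SAR131675, 70.5% in control diet, 62.2% in LNR and 56.0% in sham. After thinning the share was 34.1% in SAR131675, 39.6% in control diet, 41.6% in LNR and 44.2% in sham. Flt4 and Nrp2 were found together in 60.2% of LEC-like cells in SAR131675, 61.4% in control diet, 41.0% in LNR and 45.9% in sham, and after thinning in 32.7% in SAR131675, 32.5% in control diet, 22.1% in LNR and 30.6% in sham. These are the pairs of receptors that bind VEGF-C. In BEC-like cells, Flt1 and Kdr were found together in 79.1% of cells in SAR131675, 72.9% in control diet, 59.5% in LNR and 54.1% in sham, and after thinning in 51.1% in SAR131675, 50.4% in control diet, 33.3% in LNR and 30.1% in sham. Kdr and Nrp1, the pair that binds VEGF-A, were found together in 71.4% of BEC-like cells in SAR131675, 65.2% in control diet, 40.4% in LNR and 37.1% in sham, and after thinning in 31.5% in SAR131675, 28.4% in control diet, 18.4% in LNR and 17.3% in sham. Flt4 and Kdr shared 9.80% of BEC-like cells in SAR131675, 9.54% in control diet, 5.34% in LNR and 2.98% in sham. Thinned, this was 2.13% in SAR131675, 2.55% in control diet, 1.88% in LNR and 1.40% in sham, below the share in LEC-like cells at either depth.

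BEC-like cells were not uniform. Subclusters named from arterial (Gja5, Gja4, Hey1 and others), capillary (Rgcc, Cd36, Car4 and others) and venous (Ackr1, Selp, Sele and others) markers were found in both pairs. The arterial subclass held 61 cells in SAR131675, 36 in control diet, 55 in LNR and 66 in sham. The capillary subclass held 60 cells in SAR131675, 43 in control diet, 152 in LNR and 159 in sham, and the venous subclass 225 cells in SAR131675, 198 in control diet, 151 in LNR and 137 in sham. The other BEC-like subclusters were unnamed or led by genes of mural cells, keratinocytes or fibroblasts. The venous subclass of the LNR pair had the skeletal genes Col10a1, Ibsp and Col2a1 among its leading genes, beside Sele, Selp and Ackr1. It was still kept where subclusters led by other classes were left out.

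Capillary BEC-like cells had the highest Kdr, with 1190.4 CPM in SAR131675, 1380.5 in control diet, 764 in LNR and 712 in sham, against 300.1 to 462 CPM in the venous and 105 to 191 CPM in the arterial subclass. The same subclass had the highest Flt1, with 3507 CPM in SAR131675, 3049.8 in control diet, 1323 in LNR and 1236 in sham, and the highest Nrp1, with 1108 CPM in SAR131675, 1351 in control diet, 517 in LNR and 480.1 in sham. Of these 3 subclasses, Nrp2, which marks veins in development, was highest in the venous, with 440.3 CPM in SAR131675, 473 in control diet, 274 (235 to 318) in LNR and 293 (250 to 341) in sham. It was lowest in the arterial subclass, at 3.17 to 65.2 CPM. Unnamed BEC-like cells overlapped the venous interval in LNR (220, 177 to 270) and sham (239, 190 to 297). Skeletal genes were among the leading genes of the venous subclass in that pair, and osteoblast-like cells had the highest Nrp2 of all classes. The part of skeletal RNA was not tested. Vegfc, highest in the arterial subclass as given above, was lowest in the capillary subclass of these 3 in all 4 libraries. Flt4 was at 10.9 to 36.2, 14.7 to 46.3 and 5.68 to 11.2 CPM in arterial, capillary and venous cells. It was higher in capillary than in venous cells in each library. The intervals did not overlap in SAR131675 (30.8 to 66.9 against 3.03 to 9.72 CPM) and overlapped in the others. The unnamed BEC-like subclusters had 19.6 CPM in SAR131675, 23.0 in control diet, 66.7 (27 UMIs, 82 cells) in LNR and 40.8 (14 UMIs, 72 cells) in sham. The highest subclass of Kdr, Flt1, Nrp1, Nrp2 and Vegfc was the same in each of the 4 libraries, which is a description, since the subclusters were drawn from the same cells.

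**Figure D4:**
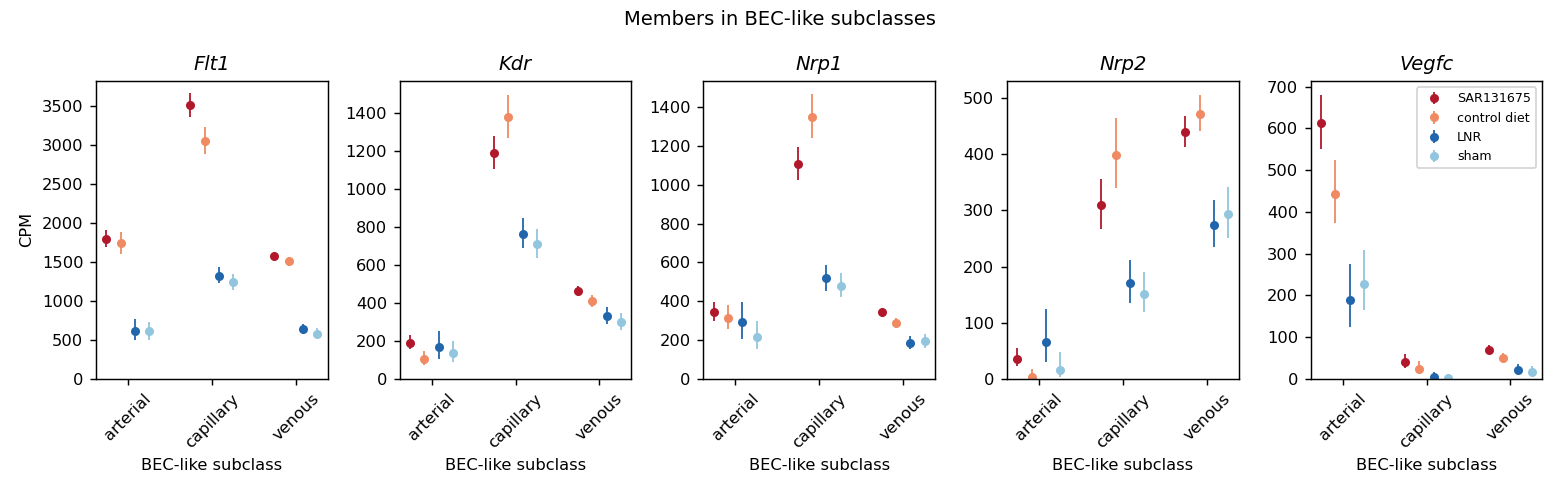
CPM of Flt1, Kdr, Nrp1, Nrp2 and Vegfc in arterial, capillary and venous BEC-like subclasses, 1 point per library with its exact 95% Poisson interval. Flt1, Kdr and Nrp1 peak in the capillary, Nrp2 in the venous and Vegfc in the arterial subclass in all 4 libraries.

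LEC-like cells also varied. Subclusters that kept the LEC markers and were not marked as led by genes of other classes had a Flt4 level of 719 CPM in SAR131675, 859 in control diet, 1034 in LNR and 1039 in sham. Kdr in the same cells was 629 CPM in SAR131675, 629.7 in control diet, 747 in LNR and 711 in sham, and Nrp2 was 607 CPM in SAR131675, 580.4 in control diet, 328 in LNR and 334 in sham. A subcluster named from collecting or valve markers (Cldn11 among its leading genes) was found in the diet pair only, with 25 and 18 cells in the SAR131675 and control diet libraries. There Flt4 was 168 and 126 CPM (26 and 14 UMIs), Nrp2 51.6 and 126 CPM (8 and 14 UMIs) and Kdr 651 and 764 CPM. Flt4 and Nrp2 were thus below, and Kdr not below, their levels in the main LEC-like subclusters. The same held in the unnamed LEC-like subclusters of all 4 libraries (51, 45, 105 and 78 cells), where Flt4 was 344 CPM in SAR131675, 419 in control diet, 402 in LNR and 386 in sham, Nrp2 142 to 437 CPM and Kdr 676 to 806 CPM.

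The first comparison asks whether blocking VEGFR3 through the diet went with another level of its ligands, receptors and coreceptors. In endothelial cells no receptor with at least 20 UMIs in the pair was past 1.5-fold between the SAR131675 and control diet libraries. In LEC-like cells, the log2 ratio of SAR131675 over control diet, with its interval, was -0.21 (-0.35 to -0.07) for Flt4, 0.01 (-0.12 to 0.15) for Kdr and 0.20 (0.04 to 0.36) for Nrp2. The Flt4 level was 479 CPM under SAR131675 and 553 CPM under control diet, a difference beyond counting error but under 1.5-fold. Flt1 in LEC-like cells held 14 and 1 UMIs, under that minimum, with a log2 ratio of 3.85 (1.13 to 9.25). Without subclusters led by other classes the Flt4 ratio was -0.28 (-0.43 to -0.13). Keratinocyte markers summed to 1912 and 4523 CPM and erythroid markers to 1109 and 4562 CPM in LEC-like cells of the SAR131675 and control diet libraries, and their part in the ratio was not tested. Without those subclusters they summed to 814 and 422 CPM and to 1367 and 6193 CPM. In BEC-like cells the log2 ratios were 0.03 (-0.01 to 0.07) for Flt1, -0.01 (-0.08 to 0.07) for Kdr, 0.06 (-0.02 to 0.14) for Nrp1, -0.12 (-0.21 to -0.02) for Nrp2 and -0.16 (-0.58 to 0.26) for Flt4. With 1 library a side, none of these can be set against the spread between mice.

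A gene was counted as past 1.5-fold in a class when its CPM differed by at least 1.5 times, the interval of the ratio left out 1 and the pair held at least 20 UMIs. Over 25 classes, 134 pairs of gene and class could be counted, of which 3 were higher and 9 lower under SAR131675 (2.24% and 6.72%). Over all genes the same rule gave 3.35% higher and 3.71% lower, so the share that was lower stood above the background, as it did under 6 alternatives. The share that was higher stood below it here but above it under 4 of the 6. Among the 6 of these genes that could be counted in LEC-like cells and the 9 in BEC-like cells, only Vegfd in BEC-like cells passed, against a background of 2.99% higher and 4.53% lower in LEC-like and 3.11% higher and 2.63% lower in BEC-like cells.

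The ligands gave 7 of the 9 lower values: Vegfa in 3 of 22 classes that could be counted, Vegfb in 0 of 20, Vegfc in 2 of 11 and Vegfd in 2 of 15. Their median log2 ratios over these classes were -0.02, 0.02, 0.06 and -0.25 in that order. Vegfc in fibroblast-like cells rested on the most UMIs: its level was 109 CPM (1191 UMIs) in SAR131675 and 167 CPM (1438 UMIs) in control diet, which gave -0.62 (-0.73 to -0.50) on the log2 scale. It was lower under SAR131675 in 11 of the 12 fibroblast-like clusters that could be compared, with log2 ratios from -1.49 to 0.05. These clusters come from the same 2 libraries and are not replicates. The interval included 0 in the clusters led by Spag17, by Efemp1, by Coch, by Mmp13 and by Sfrp2 with Thbs4. It also did so, at -0.25 (-0.51 to 0.007), in the cluster led by C1qtnf3, Scg3 and Col14a1. That cluster (171 and 204 CPM) held 133 cells in SAR131675 and 206 in control diet. The cluster led by Col8a1, Rbp4 and Eln, where Vegfc was low (12.6 and 26.2 CPM), held 146 and 65. The part of this make-up in the class ratio was not tested. Over the whole fibroblast-like class of the LNR pair, the log2 ratio of Vegfc in LNR over sham was -0.26 (-0.54 to 0.02). In osteoblast-like cells Vegfc was 28.0 CPM (22 UMIs) in SAR131675 and 67.2 CPM (33 UMIs) in control diet, but thinned to 2000 UMIs a cell its log2 ratio turned to 0.15. In BEC-like cells its direction was the other, with 104 CPM (771 UMIs) in SAR131675 and 71.0 CPM (382 UMIs) in control diet, or 0.55 (0.37 to 0.73) on the log2 scale, just short of 1.5-fold. Without subclusters led by other classes it was 0.60 (0.40 to 0.79) and past 1.5-fold. Its level was higher under SAR131675 in each BEC-like subclass: in the arterial subclass it was 613 (551 to 679.8) against 443 (373 to 523) CPM, with no overlap of the intervals. In the capillary, venous, mixed and unnamed subclasses the intervals of the levels overlapped, and no interval of the ratio was taken there. The arterial subclass held 360 of the 771 Vegfc UMIs in SAR131675 and 140 of the 382 in control diet. It made up 61 of 786 and 36 of 650 BEC-like cells. The part of this make-up in the class ratio was not tested.

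Vegfd was lower under SAR131675 in follicle keratinocyte-like cells, at 10.00 CPM (143 UMIs) in SAR131675 and 16.0 CPM (180 UMIs) in control diet, and in BEC-like cells, at 10.3 CPM (76 UMIs) in SAR131675 and 15.6 CPM (84 UMIs) in control diet. Without subclusters led by other classes the BEC-like ratio was -0.47 (-1.03 to 0.09) and no longer past 1.5-fold. In adventitial fibroblast-like cells Vegfd had a log2 ratio of 0.06 (-0.06 to 0.18). Vegfa was lower in chondrocyte-like cells, at 47.1 CPM (35 UMIs) in SAR131675 and 75.3 CPM (57 UMIs) in control diet, in Schwann-like cells, at 10.8 CPM (20 UMIs) in SAR131675 and 30.7 CPM (34 UMIs) in control diet, and in monocyte-like cells, at 23.8 CPM (8 UMIs) in SAR131675 and 179.7 CPM (33 UMIs) in control diet from 57 and 31 cells. In its highest class, the sweat gland-like cells, Vegfa had a log2 ratio of 0.01 (-0.19 to 0.21).

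The receptor values past 1.5-fold in the diet pair lay outside the endothelium and rested on few UMIs. Flt1 was 3.56 CPM (23 UMIs) in SAR131675 and 1.40 CPM (7 UMIs) in control diet in macrophage-like cells and 59.5 CPM (20 UMIs) in SAR131675 and 16.3 CPM (3 UMIs) in control diet in monocyte-like cells. In inner root sheath-like cells it was 1.25 CPM (20 UMIs) in SAR131675 and 3.03 CPM (15 UMIs) in control diet. Kdr in granular keratinocyte-like cells was 0.395 CPM (6 UMIs) in SAR131675 and 1.38 CPM (27 UMIs) in control diet. Nrp2 in neutrophil-like cells was 57.5 CPM (40 UMIs) in SAR131675 and 10.7 CPM (3 UMIs) in control diet. None of these rested on over 43 UMIs in both libraries together.

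The second comparison asks the same of lymph node removal. Endothelial receptors with at least 20 UMIs in the pair again differed by less than 1.5-fold. In LEC-like cells the log2 ratio of LNR over sham was -0.01 (-0.16 to 0.15) for Flt4, 0.19 (0.04 to 0.34) for Kdr and -0.06 (-0.32 to 0.19) for Nrp2. In BEC-like cells it was 0.05 (-0.03 to 0.13) for Flt1, 0.17 (0.06 to 0.27) for Kdr, 0.07 (-0.06 to 0.20) for Nrp1, -0.06 (-0.22 to 0.10) for Nrp2 and 0.56 (-0.01 to 1.14) for Flt4. Without subclusters led by other classes the last was 0.70 (48 and 28 UMIs), over 1.5-fold but with an interval that included 0. The background in this pair was 1.7% higher and 2.58% lower in LEC-like cells and 1.27% higher and 2.14% lower in BEC-like cells, and none of the 9 genes passed in either class. Kdr was higher in LNR beyond counting error in both endothelial classes, but without subclusters led by other classes its log2 ratio was 0.11 (-0.05 to 0.28) in LEC-like and 0.05 (-0.10 to 0.20) in BEC-like cells, both within counting error. Erythroid markers summed to 1058 CPM in LNR and 78.8 CPM in sham in BEC-like cells, and to 609 and 363 CPM in LEC-like cells. Keratinocyte markers summed to 1969 and 3505 CPM in LEC-like cells and to 3206 and 3231 CPM in BEC-like cells. Once those subclusters were left out, erythroid markers summed to 2414 CPM in LNR and 88.2 CPM in sham in BEC-like cells and to 85.5 and 363 CPM in LEC-like cells. Keratinocyte markers then summed to 297 and 373 CPM in BEC-like and to 260.0 and 523 CPM in LEC-like cells. The part of these markers in the ratios was not tested.

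Over the 25 classes, 120 pairs of gene and class could be counted, and 8 were higher and 5 lower in LNR (6.67% and 4.17%), above the 2.25% and 2.1% of all genes. Vegfa in macrophage-like cells rested on the most UMIs: it was 44.8 CPM (255 UMIs) in LNR and 20.01 CPM (96 UMIs) in sham, or 1.16 (0.82 to 1.52) on the log2 scale, and in the diet pair the ratio was -0.25 (-0.85 to 0.35). Macrophage-like cells held a small cluster led by Mmp12, Arg1 and Clec4n, with 60 cells in LNR and 30 in sham, in which Vegfa was 471 and 287 CPM (176 and 48 UMIs). In the main cluster, led by complement C1q genes and Pf4, Vegfa was 15.4 and 10.4 CPM (79 and 46 UMIs). The log2 ratio was 0.72 (0.25 to 1.21) in the first and 0.57 (0.03 to 1.13) in the second, both smaller than the ratio over the class. The Mmp12 cluster made up 60 of 1177 macrophage-like cells in LNR and 30 of 1055 in sham. In the main cluster the ratio was under 1.5-fold. The part of this make-up in the class ratio was not tested. Of the 25 values past 1.5-fold in either pair, Vegfa over the macrophage-like class was the only one that stayed past it under every alternative tried. Its log2 ratios there ran from 0.64 to 1.37, but no alternative held the mix of clusters fixed.

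The other values past 1.5-fold in the LNR pair rested on fewer UMIs. Vegfd in macrophage-like cells was 5.97 CPM (34 UMIs) in LNR and 2.50 CPM (12 UMIs) in sham. Nrp1 was 18.6 CPM (32 UMIs) in LNR and 8.19 CPM (17 UMIs) in sham in Langerhans-like cells and 27.3 CPM (42 UMIs) in LNR and 14.9 CPM (21 UMIs) in sham in tenocyte-like cells. Nrp2 was 54.3 CPM (48 UMIs) in LNR and 23.7 CPM (14 UMIs) in sham in chondrocyte-like cells and 3.75 CPM (19 UMIs) in LNR and 10.5 CPM (63 UMIs) in sham in follicle keratinocyte-like cells. Flt1 in dendritic-like cells, a class where it was well above background, was 60.02 CPM (32 UMIs) in LNR and 123 CPM (66 UMIs) in sham, with a log2 ratio of -0.84 (-1.70 to -0.03) in one of the clusters that could be compared and -0.51 (-1.62 to 0.54), within counting error, in the other. The other 6 were Flt1 or Kdr in fibroblast-like, synovial lining-like, sebaceous-like and keratinocyte-like cells, all at 5.89 CPM or less.

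**Figure D5:**
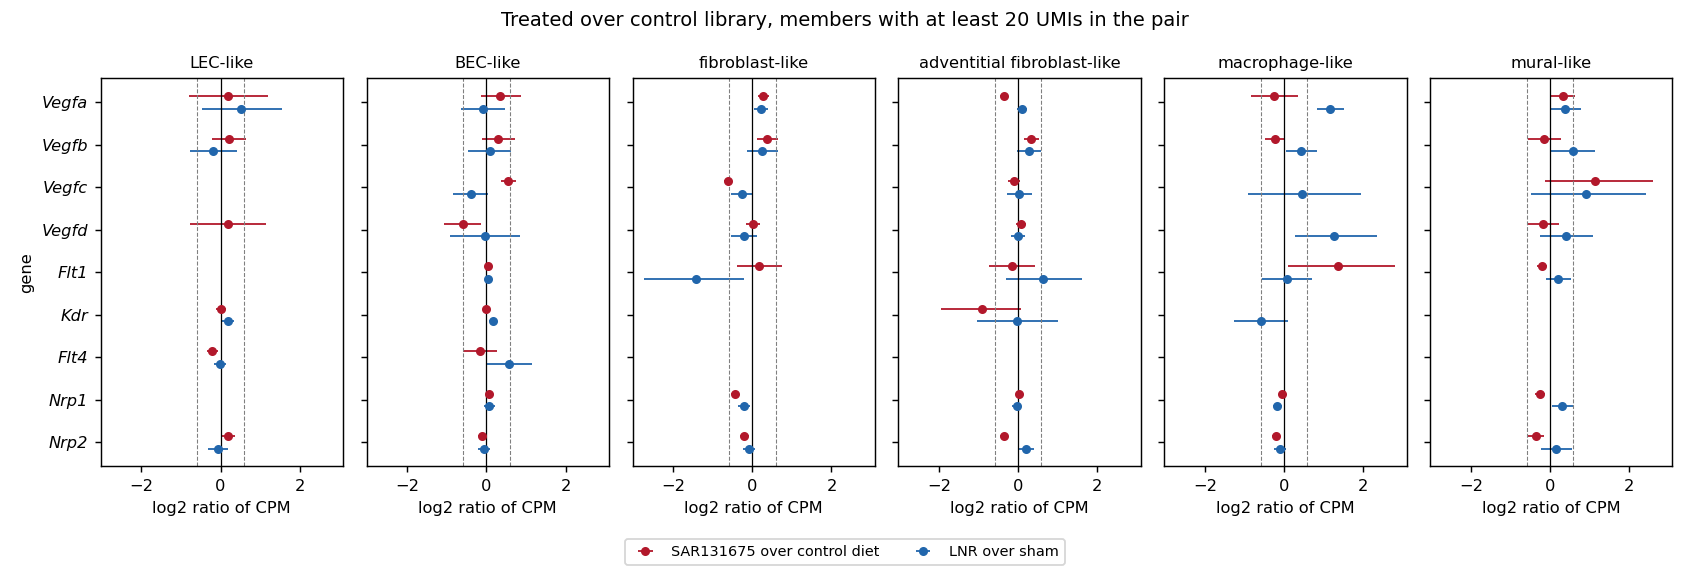
Log2 ratio of CPM, treated over control, of the 9 genes in 6 cell classes, red for SAR131675 over control diet and blue for LNR over sham, with exact 95% intervals for counting error and dashed lines at 1.5-fold; genes with under 20 UMIs in a pair are not drawn. Receptor points of the endothelial classes lie within the dashed lines, Vegfc in fibroblast-like cells lies left of 0 for the diet pair, and Vegfa in macrophage-like cells lies right of 0 for the LNR pair.

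The 2 control libraries differed from each other by far more than either pair did. For control diet over sham, 41.4% of 128 pairs of gene and class were higher and 9.38% lower by the same rule, close to the 40.3% and 10.3% of all genes. Flt1 in BEC-like cells was 1767 CPM in control diet and 617 CPM in sham, and Vegfc in fibroblast-like cells 167 and 40.9 CPM. Flt4 in LEC-like cells differed little, at 553 and 613 CPM. The headers of the count matrices name Cell Ranger 8.0.1 for the diet pair and 6.1.2 for the LNR pair, the libraries differ in depth, and the diets and surgery differ, and these cannot be told apart. Levels were therefore compared within a pair, and across pairs only by the order of classes.

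The wider pathway was read in a list of 84 genes in 8 groups, all found in the files. In LEC-like cells, 2 of the 67 that could be counted were higher and 2 lower under SAR131675, and 1 of 62 was higher and 2 lower in LNR. Over all genes in these cells the shares were 2.99% higher and 4.53% lower under SAR131675 and 1.7% and 2.58% in LNR. In BEC-like cells, 5 of 78 were higher and 1 lower under SAR131675, and 1 of 77 was higher and 2 lower in LNR, against 3.11% and 2.63% of all genes under SAR131675 and 1.27% and 2.14% in LNR. Median log2 ratios of all genes counted lay between -0.02 and 0.02 in the 4 sets. The 26 genes of receptor signal transduction, such as Plcg1 and Akt1, had 1 lower, the protein kinase C gene Prkcb in BEC-like cells of the diet pair (-0.81, -1.51 to -0.11, given here and in the next values as the log2 ratio and its interval). They had 1 higher, the focal adhesion kinase gene Ptk2 in LEC-like cells of the LNR pair (0.60, 0.01 to 1.21). Of the 16 endothelial VEGF response genes, Nrarp, a Notch feedback regulator, was lower in LEC-like cells (-0.88, -1.59 to -0.19) and Cxcr4, a chemokine receptor of tip cells, higher in BEC-like cells (0.61, 0.04 to 1.21), both in the diet pair.

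The semaphorins that share the neuropilins with VEGF gave the most values past 1.5-fold. In BEC-like cells of the diet pair, Sema3a, Sema3c and Sema3e were higher under SAR131675 (1.42, 0.32 to 2.66 for Sema3a, 1.02, 0.46 to 1.60 for Sema3c and 1.83, 1.04 to 2.70 for Sema3e). In LEC-like cells, Sema3e was higher (2.59, 1.32 to 4.13) and Sema3c lower (-1.02, -1.78 to -0.29), and Sema3c was also lower in LNR (-1.28, -2.26 to -0.36). The highest level of Sema3c and Sema3e in every library was in adventitial fibroblast-like cells, at 323 to 518 and 121 to 351 CPM, against at most 31.1 CPM in the endothelial values just given. The 6 fibroblast markers summed to 735 CPM in BEC-like cells under SAR131675 and 334 CPM under control diet. In LEC-like cells they summed to 476 and 526 CPM in the diet pair and to 1548 and 1576 CPM in LNR and sham. Without the subclusters led by genes of other classes, no semaphorin was past 1.5-fold: in BEC-like cells of the diet pair the ratio was 0.86, -0.48 to 2.37 for Sema3a and 0.29, -0.87 to 1.52 for Sema3c, and Sema3e was left with 5 and 2 UMIs. Other genes past 1.5-fold were Plxnd1, the semaphorin 3E receptor, in LEC-like cells (0.68, 0.18 to 1.19), and Clec14a, an endothelial C-type lectin, in BEC-like cells (0.59, 0.43 to 0.75), both higher under SAR131675.

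In the LNR pair, Svep1, a matrix protein of lymphatic vessel development, and the convertase Pcsk5 were lower in BEC-like cells (-1.08, -1.92 to -0.28 for Svep1 and -0.78, -1.45 to -0.13 for Pcsk5). The oxygen sensor Egln3 was higher in BEC-like cells (0.69, 0.13 to 1.26) and the neuropilin adaptor Gipc1 was lower in LEC-like cells (-0.84, -1.57 to -0.14). Without subclusters led by other classes, 7 values were past 1.5-fold in the 4 sets in place of 16, and only Prkcb and Gipc1 were among both. The other 5 were, under SAR131675, Furin (-0.70, -1.21 to -0.20) and the Notch ligand Dll4 (-0.66, -0.99 to -0.33) in LEC-like cells, both lower. In LNR they were the plexin Plxna2, higher in LEC-like cells (0.76, 0.09 to 1.46), and the transcription factor Egr3 (-0.60, -0.96 to -0.25) and the tip cell peptide Apln (-0.75, -1.24 to -0.27), both lower in BEC-like cells.

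Of the 9 genes listed for VEGF-C maturation and matrix, 2 (Ccbe1 and Svep1) were highest in the class with the highest Vegfc in all 4 libraries. The share of all genes that do so was not taken, and highest classes of these 9 were read under the main setting only. Ccbe1, which presents pro-VEGF-C to its protease, was highest in fibroblast-like cells in all 4 libraries, at 266 CPM in SAR131675, 345 in control diet, 48.5 in LNR and 60.1 in sham. Svep1 was also highest in fibroblast-like cells, at 168 to 360.0 CPM, Adamts2 in osteoblast-like cells and Furin in synovial lining-like cells. Adamts3, the main VEGF-C protease, reached at most 41.2 CPM in any class (osteoblast-like or tenocyte-like). Sema3d and Sema3f, ligands of the neuropilins, were highest in LEC-like cells in every library, at 305 to 602 and 72.0 to 139 CPM, and Sema3b in Schwann-like cells. Pgf, the FLT1 ligand outside the 9 genes, was highest in Langerhans-like cells in the diet pair (58.4 and 68.5 CPM) and in sweat gland-like cells in the LNR pair (38.9 and 81.8 CPM). The highest class also differed between libraries for Adamts14, Pcsk5, Pcsk7, Ctsd, Sema3a and Sema3g.

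The genes whose level over the 100 points of class and library was most like each member are given as a description of these classes, which share libraries and depth. Among 18040 genes, Flt4 was nearest to Btnl9, Mmrn1 and Gpr182 (r = 0.95, 0.95 and 0.93), of which Mmrn1 is a lymphatic gene used to name the class and Btnl9 is on the capillary marker list. Kdr was nearest to Robo4, Gpihbp1 and Cdh5 (r = 0.90, 0.89 and 0.88), all known from endothelium. Of these, Gpihbp1 is on the capillary and Cdh5 on the endothelial marker list. Flt1 was nearest to Vwf, Vsig2 and Cd300lg (r = 0.77, 0.75 and 0.74), of which Vwf is on the BEC and venous marker lists. Nrp1 was nearest to Gm56862, Rgl1 and Tnfsf12 (r = 0.91, 0.80 and 0.78) and Nrp2 to Mertk, Lhfp and Sncaip (r = 0.73, 0.70 and 0.70), including the phagocytic receptor gene Mertk. Among ligands, Vegfc was nearest to Mecom, Pdgfd and Tmem47 (r = 0.87, 0.80 and 0.79), Vegfd to Ntf3, Tshz2 and Slc16a9 (r = 0.78, 0.78 and 0.77), Vegfb to Smyd4, E2f5 and E2f6 (r = 0.80, 0.80 and 0.78) and Vegfa to Tmem38b, Thbs1 and 4933421O10Rik (r = 0.64, 0.63 and 0.62). Between members, the correlation was highest for Kdr and Flt4 (r = 0.82) and next for Vegfc and Nrp1 (r = 0.61).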

How the data were processed

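The authors sequenced 10x Genomics Single Cell 3' v3 libraries, and the deposited matrices hold whole-number UMI counts per gene and barcode, not normalized. Per the labels, counts were made with Cell Ranger 6.1.2 on GRCm39, whereas the matrix headers name 6.1.2 for the LNR pair and 8.0.1 for the diet pair. Cell Ranger of the later version counts intronic reads by default and the earlier one does not, and whether introns were counted is not given in the sources used here.

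Barcodes with 200 to 5500 genes, at most 30000 UMIs and at most 10% mt- UMIs were kept, which left 29076 of 38464 barcodes (SAR131675), 24030 of 30831 (control diet), 19827 of 21669 (LNR) and 20669 of 22539 (sham). The deposited files hold no cell annotation. The libraries of each pair were clustered together with scanpy 1.11.5 (2000 variable genes, 30 principal components, 20 neighbors, Leiden resolution 0.7), leaving out the 9 genes, the pathway lists and mt- genes, and clusters were named from marker lists. The members and lists were chosen with earlier results of these data known, and the scoring rule for names was set after the clusters were seen. Doublets were left in. Scrublet called 4.67% of SAR131675, 0.907% of control diet, 7.41% of LNR and 6.97% of sham cells, against preset expected rates of 23.3%, 19.2%, 15.9% and 16.5%, so removing them, an alternative, took out fewer cells than expected.

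Counts were summed per class and library. Levels have exact Poisson, shares exact Clopper-Pearson and ratios exact conditional binomial 95% intervals, which cover counting error only. Cells are not replicates, so no p-value is given. A ratio counted as past 1.5-fold when its interval left out 1 and the pair held 20 UMIs. The scripts were tested on simulated counts. Genes described are the 9 members, the pathway genes past 1.5-fold in endothelial cells, the VEGF-C processing and semaphorin genes by highest class, and the 3 genes with the most similar profile to each member (genes with at least 200 UMIs). Promoter windows came from RefSeq on GRCm38.p6, and no coordinates were taken from the files. Alternatives were no upper limits, Scrublet removal, resolution 1.2, joint clustering of 4 libraries, per-cell means, other UMI and cell minimums, thinning to 2000 UMIs and, added after seeing the data, leaving out endothelial subclusters led by other classes. In the last, erythroid genes did not count as genes of another class.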

Additional observations from a re-analysis of the deposited data

Results flagged for a closer look

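For 3 genes the log2 ratio was past 1.5-fold upward in 1 cell class and downward in another class of the same pair, and the difference between classes was not itself tested. For SAR131675 over control diet, Flt1 had a log2 ratio of 1.35 in macrophage-like and 1.87 in monocyte-like cells, but -1.28 in inner root sheath-like cells. For LNR over sham, Flt1 had a log2 ratio of 2.56 in spinous keratinocyte-like cells, but -1.04 in dendritic-like, -1.43 in fibroblast-like and -1.28 in granular keratinocyte-like cells. Kdr had 2.81 in sebaceous-like and 0.91 in synovial lining-like cells, but -1.91 in cycling keratinocyte-like cells. Nrp2 had 1.195 in chondrocyte-like cells, but -1.48 in follicle keratinocyte-like cells. None of these values stayed past 1.5-fold under every alternative tried. In the LNR pair, Flt1 in fibroblast-like and granular keratinocyte-like cells and Kdr in synovial lining-like and cycling keratinocyte-like cells changed direction under 1 alternative each. With 1 library per condition, counting error is the only error known for them.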

How the results depend on the processing

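The count of values past 1.5-fold over the 25 classes was 12 for SAR131675 over control diet. It was 21 without the upper limits on genes and UMIs, 19 with Scrublet calls removed and 6 when 50 UMIs were required. In those 3 settings 10, 7 and 0 were higher (6.8%, 5.22% and 0%, against 3.83%, 2.77% and 2.95% of all genes) and 11, 12 and 6 lower (7.48%, 8.96% and 5.66%, against 3.43%, 4.32% and 3.3%). For LNR over sham it was 13, against 20 when 10 UMIs were enough and 6 when 50 were required, with 12 and 4 higher (8.11% and 4.55%, against 2.28% and 1.91%) and 8 and 2 lower (5.41% and 2.27%, against 2.17% and 1.75%). The number of genes with 1 highest class in all 4 libraries was 7, 7 with Scrublet calls removed, 4 by the mean of per-cell CPM, and 6 without upper limits, at resolution 1.2, with all 4 libraries clustered together and with classes of at least 100 cells. In the last, Vegfb and Nrp2 were highest in LEC-like cells in all 4 libraries, and Vegfa in fibroblast-like or nail mesenchyme-like classes. Of the levels and UMI shares of the 9 genes in their highest classes, 15 levels moved outside their counting interval without upper limits and 21 did not, and 18 shares did and 18 did not. Pathway values past 1.5-fold numbered 16, and 7 without endothelial subclusters led by other classes. Thinned to 2000 UMIs, the share of LEC-like cells with Flt4 was 57.9% (SAR131675), 61.8% (control diet) and 63.8% (LNR). For single log2 ratios, 108 alternative values kept their direction and side of the rule, 57 no longer passed it, 2 newly passed it and 10 turned around. Those were, without upper limits, Kdr in granular keratinocyte-like cells (0.0125, diet pair), Kdr in cycling keratinocyte-like cells (1.36, LNR pair) and Flt4 in LEC-like cells (0.0548, LNR pair). With Scrublet calls removed they were Flt1 in fibroblast-like (0.60), Kdr in synovial lining-like (-0.18) and Nrp1 in tenocyte-like cells (-0.15), all in the LNR pair. With thinning they were Vegfc in osteoblast-like cells (0.15, diet pair) and Flt1 in granular keratinocyte-like cells (0.18, LNR pair), at resolution 1.2 Vegfd in macrophage-like cells (-0.25, LNR pair), and with all 4 libraries clustered together Nrp1 in Langerhans-like cells (-0.31, LNR pair). The cause was not tested. Vegfc in fibroblast-like cells fell short of 1.5-fold only with thinning (-0.58, diet pair). Vegfc was highest in BEC-like cells in place of fibroblast-like cells in SAR131675 with Scrublet calls removed, with all 4 libraries clustered together and by the mean of per-cell CPM, and in the LNR pair at resolution 1.2, and in adventitial fibroblast-like cells in control diet with all 4 libraries clustered together. No paired analysis was possible because each condition has 1 library. Depth limits classes with few cells, where a gene at a few UMIs cannot be told from background.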
